A study of Mus musculus with 4 samples.

Results

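CTCF peaks were counted inside and just outside 34 clusters of olfactory receptor genes on the mouse autosomes. The clusters were built from the 1103 protein-coding genes of the RefSeq annotation whose symbol is Olfr followed by a digit and that lie on an autosome above the first 3 Mb. Genes less than 200 kb apart were joined, and clusters of at least 5 genes were kept. This placed 1054 genes in clusters, left 49 outside them, and gave interiors of 27.1 Mb in all, or 1.13% of the autosomal length. Of the 51871 peaks in the deposited list, 50267 lay on autosomes. A summit, the base of highest signal in a peak, fell inside a cluster for 137 of them and within the 100 kb outside a border for 209, so 346 peaks are described here. The coordinates are those of mm10, counted from 1. The rule for the clusters uses gene positions only, though it was chosen with earlier results of these data known.

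The peaks came from whole testes of F1 mice, the offspring of a B6 by CAST cross, with no sorting, so peaks of different testis cell types cannot be told apart. The labels name no age, treatment or mutation. The study took 2 samples by CTCF immunoprecipitation and 2 input samples, and the values used are those of 1 merged peak list, with no value per sample. No spread between animals can therefore be given, no test over samples was possible, and the read depth is unknown. Intervals below cover counting error only, and neighbouring peaks are not independent of each other.

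Olfactory receptors are G protein-coupled receptors of the nose, the largest gene family of the mouse. A mature olfactory neuron expresses a single receptor allele and keeps the other receptor genes silent in compact chromatin. The genes stand in tandem arrays, and most have their coding sequence in a single exon. A few are also transcribed outside the nose, among them in sperm precursors. CTCF is a zinc-finger protein that stops cohesin as it extrudes chromatin loops, and its sites often lie at the edges of chromatin domains.

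The sequences before the annotated starts of the receptors held fewer summits and less G plus C than those of other genes. RefSeq promoters (GRCm38.p6, which keeps the chromosome positions of mm10) were matched for 895 of the 1054 clustered receptor genes. The 250 bases before each annotated start were read. Receptor genes were annotated over a median of 948 bp, and whether their annotated starts are starts of transcription was not tested. The windows of receptors and of other genes may therefore not be alike in kind. No CTCF summit lay in any of the 899 receptor windows (0%, exact 95% interval up to 0.409%), while 3572 of 30454 windows of other autosomal genes held one (11.7%). In the flanks of the clusters it was 18 of 200 windows of other genes (9%, interval 5.42 to 13.9). The receptor windows were rich in A and T, with a median G plus C content of 33.6% against 52.8% for other genes, and 408 of them (45.4%) held no CpG, against 1981 of the 30454 others. In the flank windows the median G plus C content was 50.8% and 16 of 200 (8%) held no CpG. A short form of the CTCF core motif, taken from general knowledge and searched on both strands, reads CCA, any 2 bases, AG, any 2 bases, GGC. It occurred in 2 of 899 receptor windows (0.222%) and in 659 of 30454 others (2.16%). In the flanks it occurred in 2 of 200 (1%, interval 0.121 to 3.57), which overlaps the receptors' interval of 0.0270 to 0.801. Of the 3572 other windows with a summit, 274 held it (7.67%). Most windows with a summit thus had no match, and a window without a match may still hold a CTCF site. The fixed bases of the motif are mostly G or C, and the shares with a match were not adjusted for base composition.

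The windows below run 5′ to 3′ on the strand of the gene, with matches to the motif in capitals. Trim34a is shown as the promoter with both a summit and the motif in a flank. Chd8 is shown as a flank promoter with a summit and no match to this short form. Olfr66 and Olfr1253 are the receptors whose windows hold a match, both without a summit nearby. Olfr545 has the summit closest to an annotated start among the 14 receptors with a summit within 1 kb whose strand the table gives, and Olfr16 is a receptor known from testis and sperm.
Trim34a, chr7:104244207-104244456, plus strand: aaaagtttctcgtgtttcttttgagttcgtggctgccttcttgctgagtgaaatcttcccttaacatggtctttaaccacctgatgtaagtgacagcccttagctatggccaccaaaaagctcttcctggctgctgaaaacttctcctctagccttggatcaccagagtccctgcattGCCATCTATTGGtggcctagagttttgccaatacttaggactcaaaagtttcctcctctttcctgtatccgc
Chd8, chr14:52257761-52258010, minus strand: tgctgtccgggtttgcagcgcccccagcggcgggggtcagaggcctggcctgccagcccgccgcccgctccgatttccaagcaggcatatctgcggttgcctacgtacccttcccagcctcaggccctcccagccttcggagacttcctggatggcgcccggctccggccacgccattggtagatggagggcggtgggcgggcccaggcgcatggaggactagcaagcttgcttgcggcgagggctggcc
Olfr66, chr7:103882242-103882491, minus strand: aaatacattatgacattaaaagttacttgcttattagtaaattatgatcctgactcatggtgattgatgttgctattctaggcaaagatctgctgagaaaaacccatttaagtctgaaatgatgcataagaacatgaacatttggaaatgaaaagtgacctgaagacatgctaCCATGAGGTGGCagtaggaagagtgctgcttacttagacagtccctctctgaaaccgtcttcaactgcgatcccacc
Olfr1253, chr2:89752827-89753076, minus strand: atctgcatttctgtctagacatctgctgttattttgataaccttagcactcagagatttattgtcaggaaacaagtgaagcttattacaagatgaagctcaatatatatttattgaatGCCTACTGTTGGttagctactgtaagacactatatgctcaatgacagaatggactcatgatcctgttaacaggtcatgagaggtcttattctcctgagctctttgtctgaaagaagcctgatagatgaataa
Olfr545, chr7:102494774-102495023, minus strand: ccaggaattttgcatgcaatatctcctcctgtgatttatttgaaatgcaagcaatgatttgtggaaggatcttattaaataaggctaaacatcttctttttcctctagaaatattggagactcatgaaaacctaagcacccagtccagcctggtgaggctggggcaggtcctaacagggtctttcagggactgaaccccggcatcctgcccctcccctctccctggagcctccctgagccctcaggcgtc
Olfr16, chr1:172956518-172956767, plus strand: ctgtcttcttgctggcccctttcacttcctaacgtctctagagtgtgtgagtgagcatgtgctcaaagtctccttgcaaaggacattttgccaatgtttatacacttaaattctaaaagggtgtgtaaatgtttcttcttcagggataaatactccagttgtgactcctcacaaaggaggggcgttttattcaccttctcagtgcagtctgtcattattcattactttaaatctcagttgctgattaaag

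In Trim34a, a tripartite-motif gene beyond the upper border of the globin-containing cluster on chromosome 7, the summit lay 14 bp from the motif, with a fold enrichment (the authors' ratio of signal at the summit over background) of 13.2. At Chd8, which encodes a chromatin remodeller, the summit had a fold of 7.63. The matches before Olfr66 and Olfr1253 had their nearest summits 9041 and 208208 bp away. At Olfr545 the summit lay 188 bp downstream of the annotated start, inside the gene, with a fold of 5.89.

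The interiors of the clusters held few CTCF peaks. Their 137 summits amounted to 5.05 per Mb (exact 95% Poisson interval 4.24 to 5.97), against 20.9 per Mb over the 19 autosomes, a ratio of 0.242. At the densities of their own chromosomes the same stretches would hold 621 summits. Genes were dense there: the interiors carried 38.9 clustered receptor genes per Mb, where the autosomes carried 8.56 protein-coding genes per Mb. For each 100 clustered receptor genes there were 13.0 interior summits, and for each 100 autosomal protein-coding genes 244 summits. Only called peaks are counted, and whether reads of both parental genomes could be placed equally well and uniquely in these arrays was not tested.

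Elsewhere on the autosomes, peaks were more numerous where genes were denser. In 1 Mb tiles without an olfactory receptor cluster the mean rose from 3.61 summits with no gene start to 21.8 with 5 to 9 genes and 61.4 with 30 or more. Tiles at least 50% inside a cluster departed from that pattern. There were 21 of them, with a median of 5 summits and a range of 0 to 30. Of the 19 such tiles with 30 or more genes, 8 held at most 3 summits, which none of the 86 other tiles of that gene number did.

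**Figure D1:**
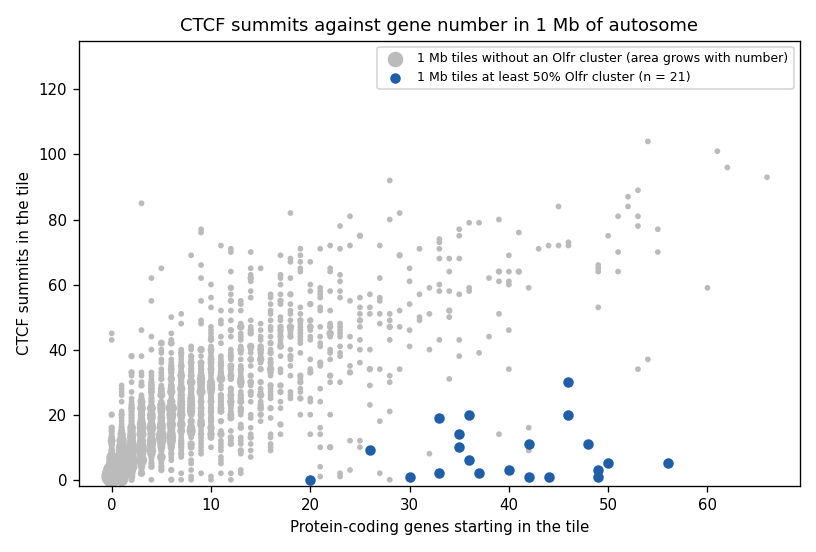
CTCF summits in 1 Mb autosomal tiles (vertical axis) against the number of protein-coding genes that start in the tile (horizontal axis); grey points are tiles without an Olfr cluster, their area growing with the number of tiles, and blue points are the 21 tiles at least 50% inside one. The blue tiles hold 0 to 30 summits, below most grey tiles of like gene number.

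The low density held in most of the clusters. In 31 of 34 the interior density was below that of the chromosome, against 58.6% of all autosomal 1 Mb tiles, and in 33 of 34 it was below that of the cluster's own flanks, against 43.5% of such tiles set beside the 100 kb on each side of them. The exception was the cluster of 5 genes from Olfr1378 to Olfr1375 on chromosome 11, with 3 summits (37.5 per Mb, interval 7.73 to 110) and 20 per Mb in its flanks. The other 2 clusters above their chromosome were also short. That from Olfr70 to Olfr155 on chromosome 4 held 11 summits in 160 kb, or 68.6 per Mb, the highest interior density. That from Olfr1416 to Olfr12 on chromosome 1 held 3 in 141 kb. Several of the 31 clusters below their chromosome had intervals that include its density. Examples are Olfr1344 to Olfr1350 (22.9 per Mb, interval 4.72 to 66.9, chromosome 23.9) and Olfr1417 to Olfr1441 (15.1, 6.91 to 28.7, chromosome 26.2). Clusters under 300 kb had 18.2 summits per Mb inside, those from 300 kb to 1 Mb had 5.73, and those of 1 Mb or more had 3.72. Of the 22 summits in the 8 clusters under 300 kb, 11 lay in that from Olfr70 to Olfr155, and without it the density was 10.5 (interval 5.24 to 18.8), which overlaps that of the middle class (4.29 to 7.495).

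**Figure D2:**
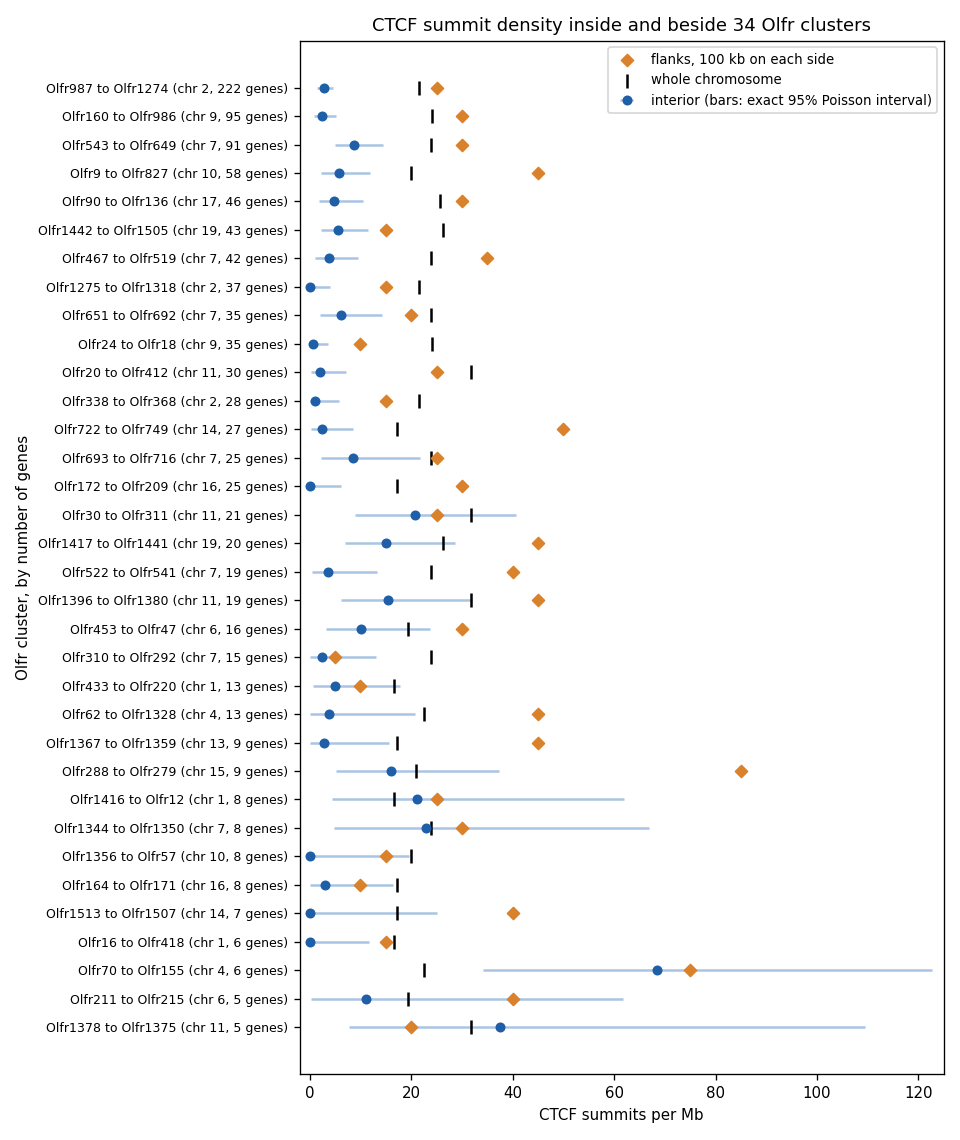
CTCF summits per Mb (horizontal axis) for the 34 Olfr clusters, ordered by number of genes: blue points are interiors with exact 95% Poisson intervals, orange diamonds the 100 kb on each side, and black ticks the whole chromosome. The interior lies left of the flanks in 33 of 34 clusters.

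The largest cluster, with 222 genes on chromosome 2 (85330967 to 90401674, Olfr987 to Olfr1274), held 14 summits in 5071 kb, where its chromosome's density gives 109. Of these, 4 lay 42.3 to 214 kb from the upper border, and 3 lay 16.0 to 28.5 kb from Olfr1176. From Olfr1178 to Olfr1243, 52 genes in a row shared a stretch of 1188 kb without a summit. The 2nd cluster, with 95 genes on chromosome 9 (37711348 to 40188094), held 6 summits, and 40 genes from Olfr883 to Olfr930 shared 955 kb without one. The 3rd, with 91 genes on chromosome 7 (102476773 to 104190205, Olfr543 to Olfr649), surrounds the beta-globin genes and holds receptors of class I, the group related to those of fish. It had 15 summits, 10 toward its lower border and 5 from near Olfr67 to near Olfr633, around globin, and none over the 873 kb of the 48 genes from Olfr572 to Olfr67.

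The globin genes themselves, which encode the beta chains of haemoglobin, had no summit within 1 kb. On the side of Hbb-bt summits lay 5.46 and 19.4 kb away, with folds of 9.12 and 11.4, and on the side of Hbb-y 1 lay 20.1 kb away, with a fold of 4.17.

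**Figure D3:**
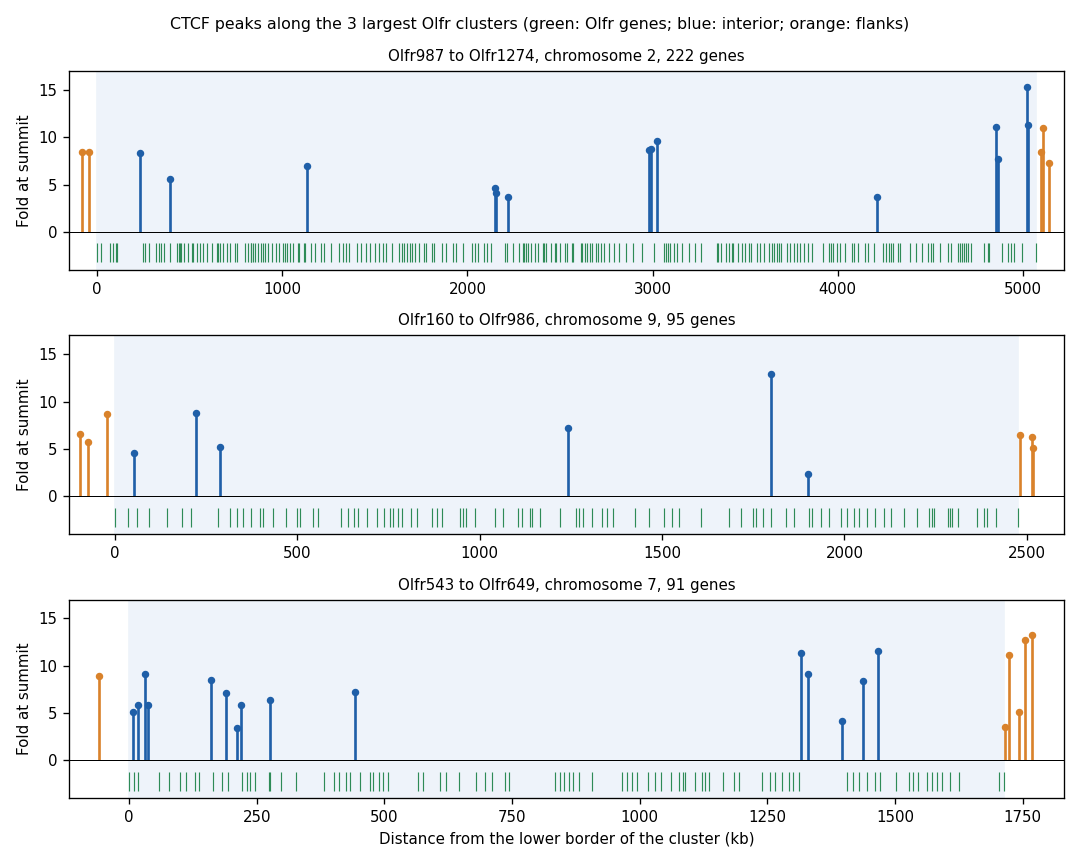
CTCF summits along the 3 largest Olfr clusters, with fold at the summit (vertical axis) against distance from the lower border in kb (horizontal axis); green ticks are Olfr genes, blue stems interior summits and orange stems summits in the 100 kb on each side. Stretches of 1188, 955 and 873 kb, packed with genes, hold no stem.

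The next clusters by size were alike. On chromosome 10 (128989914 to 130211128), 58 genes shared 7 summits. On chromosome 17 (37085191 to 38336097), 46 genes shared 6, in a stretch that also holds the major histocompatibility complex genes H2-M3 and H2-M2. A cluster of 43 genes on chromosome 19 (12674179 to 13919972) had 7 summits, all but 1 of them in its first 151 kb, and 35 genes over 988 kb had none. On chromosome 7, 42 genes (107814586 to 108894405) had 4 summits, with 973 kb and 35 genes between the 2nd and the 3rd, and 35 genes (104552884 to 105369317) had 5. On chromosome 9 (18754692 to 20336094), a single summit of fold 4.203 lay 30.8 kb from the lower border, and the other 1551 kb with 34 of the 35 genes had none.

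No interior summit was called in 5 clusters with 83 genes in all, whose lengths at the densities of their chromosomes give 41.7 summits. The largest were those of 37 genes on chromosome 2 (111230853 to 112157007, Olfr1275 to Olfr1318), 25 genes on chromosome 16 (Olfr172 to Olfr209) and 8 genes on chromosome 10 (Olfr1356 to Olfr57). The first was 926 kb long and the second 602 kb. Among all autosomal 1 Mb tiles, each longer than any of these 5 clusters, 2.84% had no summit. By chromosome, the interior density relative to the whole chromosome was lowest on 16 (ratio 0.0619, 1 summit), 9 (0.0718, 7 summits) and 2 (0.101, 15 summits). The intervals of these interior densities, 0.0269 to 5.92, 0.694 to 3.55 and 1.21 to 3.56 per Mb, overlap. The ratio was highest on chromosome 4 (1.24), where 12 summits lay in 0.430 Mb. Of these 12, the cluster from Olfr70 to Olfr155 held 11, and that from Olfr62 to Olfr1328 had 3.71 per Mb. The interval of both together, 14.4 to 48.8 per Mb, includes the 22.6 of the chromosome.

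Within the interiors, summits were densest at the few genes of other families that stand among the receptors. Most interior summits nevertheless lay more than 1 kb from any protein-coding gene. Receptor genes with 1 kb on each side covered 4.05 Mb and held 14 summits (3.45 per Mb, interval 1.89 to 5.79). Genes of other families, measured the same way, covered 0.898 Mb and held 15 (16.7 per Mb, interval 9.35 to 27.6). All autosomal protein-coding genes with these margins had 29.1 per Mb. The remaining 22.2 Mb of interior, more than 1 kb from any protein-coding gene, held 108 summits, or 4.87 per Mb, a value inside the interval of the receptor genes, where such sequence had 14.9 per Mb over the autosomes. The spacers thus stood at 0.327 of the density of such sequence over the autosomes, and the receptor genes at 0.119 of that of protein-coding genes.

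Genes of other families number 59 in the interiors, in 19 of the 34 clusters, and 12 of them had a summit within 1 kb (20.3%, exact 95% interval 11.0 to 32.8). The share was 63.9% among all autosomal protein-coding genes and 41.3% among non-receptor genes of 924 to 6467 bp, neither being length-matched to the 59. The strongest was at Lpxn, the gene of the focal adhesion protein leupaxin, with 4 summits and a top fold of 14.4, 1 of them also at the overlapping Zfp91, in the cluster on chromosome 19 that also holds the zinc-finger gene Zfp91 (11.5). Trim58 on chromosome 11, a ubiquitin ligase gene of red cell precursors, had a fold of 13.1. Mgat1 on chromosome 11, needed for complex N-glycans, had 2 summits and a top fold of 9.55, and Osbp on chromosome 19, which encodes an oxysterol-binding protein, had 9.22. Spaar (6.07), Patl1 (6.06), Pgbd1 (5.14), Fam183b (4.74), Zfp62 (4.002), Trim68 (3.47) and Zfp616 (2.84) followed.

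Of the 1054 clustered receptor genes, 16 had a summit inside or within 1 kb (1.52%, exact 95% interval 0.870 to 2.45), and 11 had one inside (1.04%), where 54.2% of all autosomal protein-coding genes did. Receptor genes are short, with a median of 948 bp against 17574 bp for all. Among the 3996 other genes between 924 and 6467 bp long, 1651 (41.3%) had a summit within 1 kb. Only this range was matched, and it reaches well above the receptor median. The median receptor gene lay 101 kb from its nearest summit, with quartiles of 35.4 and 228 kb and a maximum of 799 kb. Over 100 kb separated 531 of them (50.4%) from a summit, against 5.78% of all autosomal protein-coding genes. A summit inside a gene counted as a distance of 0, and gene length was not matched for these distances.

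The 16 receptor genes had 15 distinct summits, 14 inside clusters and that of Olfr90 just outside, since Olfr78 and Olfr560 overlap and shared a summit. The highest fold was 11.99 at Olfr1393, a receptor known from kidney, where the summit lay inside a gene annotated over 28487 bp, 7634 bp from its start. Olfr159 on chromosome 4 followed with 9.01, its summit 495 bp outside the gene, then Olfr9 with 7.74, at 389 bp from the start. Olfr687 had 7.48, Olfr90 6.99, Olfr701 6.69, Olfr763 6.61, Olfr1348 6.48, Olfr78 and Olfr560 6.34, and Olfr545 5.89. The lowest were Olfr658 with 5.54, Olfr304 with 5.21, Olfr544 with 5.07, Olfr1382 with 4.75 and Olfr452 with 3.14. For Olfr9, Olfr763, Olfr452, Olfr545 and Olfr304 the summit fell inside a gene of about 1 kb. Their summits were 389, 392, 305, 188 and 640 bp from the annotated start. Those of Olfr159, Olfr90, Olfr1348, Olfr560 and Olfr1382 lay just beyond the far end of the gene, 1365 to 1674 bp from the start. Olfr9 and Olfr90 are the outermost genes of their clusters.

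Among 12 well-studied receptors that stand in the clusters, 4 had a summit within 1 kb, against 16 of all 1054 clustered receptor genes (1.52%). The 12 were picked by name with earlier results of these data known, so their share is no estimate for receptors in general. These 4, all named above, are Olfr544, Olfr545, Olfr1393 and Olfr78, a receptor of carotid body and kidney. Olfr544, Olfr545 and Olfr78 stand in the same cluster. Olfr558, in the same cluster as Olfr78, had its nearest summit 6.74 kb away. The other 7 lay 21.2 to 306 kb from one, and 5 of them were nearer than the receptor median of 101 kb. Olfr16, known from testis and sperm, had its nearest summit 306 kb away, outside the cluster. Olfr73, a eugenol receptor inside the 222-gene cluster, lay 276 kb from one. Olfr2, the rat homolog of which is the I7 receptor of octanal, lay 33.1 kb away and Olfr17, known as P2, 51.4 kb away. The distances were 21.2 kb for Olfr160, known as M72, 69.8 kb for Olfr690, and 84.8 kb for Olfr1507, known as MOR28.

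Outside the borders the density changed abruptly. The flanks, 68 stretches of 100 kb, held 209 summits, or 30.7 per Mb (interval 26.7 to 35.2), which was 6.08 times the interior density and 1.47 times that of the autosomes. The increase was complete within the first 20 kb, with 42 summits (30.9 per Mb), and the following 4 steps of 20 kb had 27.9 to 33.8 per Mb. Inside, the first 20 kb had 9.56 per Mb (interval 5.09 to 16.3). The next 4 steps of 20 kb had 11.0, 10.9, 6.56 and 6.31, all within that interval, followed by 8.03 from 100 to 200 kb and 4.34 from 200 to 400 kb. More than 400 kb from a border, in the middle of the long clusters, 9.80 Mb held 14 summits, or 1.43 per Mb (interval 0.781 to 2.40).

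**Figure D4:**
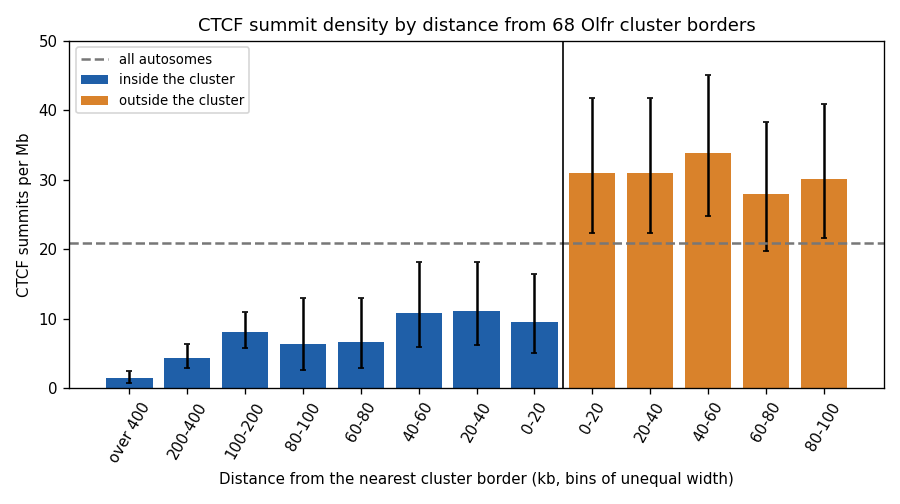
CTCF summits per Mb (vertical axis) by distance from the nearest of the 68 Olfr cluster borders in kb (horizontal axis, bins of unequal width), inside in blue and outside in orange; bars have exact 95% Poisson intervals and the dashed line is the autosomal density of 20.9. The first 20 kb outside stand at 30.9 and the first 20 kb inside at 9.56.

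The flanks had about as many summits as other autosomal sequence with like numbers of genes, each tile density lying within the interval of the flanks. With 1 to 3 genes of other families in the flank, as at 45 borders, there were 25.6 summits per Mb (interval 21.1 to 30.7), against 24.5 in autosomal 100 kb tiles with 1 to 3 genes and no olfactory receptor cluster. With 4 or more, at 17 borders, there were 50 per Mb (39.9 to 61.8) against 61.0. With none, at 6 borders, there were 15 (6.86 to 28.5) against 7.35. Weighted by these classes, the tiles give 218 summits for 68 flanks, so the 209 found were 0.957 of that number.

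A summit lay in the flank at 60 of 68 borders (88.2%, exact 95% interval 78.1 to 94.8), against 64.8% of all autosomal 100 kb tiles. With 1 to 3 genes of other families in the flank it was 39 of 45 (86.7%, interval 73.2 to 94.9), and 77.3% of tiles with 1 to 3 genes lies within that interval. With 4 or more it was 17 of 17, against 96.3% of such tiles, and with none 4 of 6, against 39.2%. The first summit outside was a median of 27.1 kb from the border, with quartiles of 8.48 and 53.1 kb. From evenly spaced autosomal points the next summit was a median of 52.3 kb away. At the 58 borders of clusters with an interior summit, the first summit lay a median of 85.7 kb inward and 24.5 kb outward. The outward one was nearer at 40 of these borders (69.0%), and no such share was counted elsewhere on the autosomes. The first outward summit lay before the nearest gene of another family at 33 borders, at that gene or within 1 kb of it at 15, and beyond it at 20. It was within 1 kb of an end of such a gene at 11 borders (16.2%), where the share among all autosomal summits was 16.5%. Over all flank summits that share was 23.4%.

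The 8 borders without a summit in 100 kb were those at Olfr338, Olfr1275, Olfr693, Olfr433, Olfr164, Olfr16, Olfr292 and Olfr136. The longest stretch was beyond Olfr136 on chromosome 17, where the first summit outward lay 992 kb away. At Olfr292 on chromosome 7 it was 415 kb and at Olfr693 380 kb. At Olfr338 the first summit was just past the limit, at 100.007 kb.

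The borders of the largest clusters differed in what stood next to them. The 222-gene cluster ended 28.1 kb before Ptprj, a receptor tyrosine phosphatase gene, and a summit of fold 8.41 lay 257 bp from the end of that gene. On its other side the next gene, Lrrc55, was 132 kb away, and the first summit, with a fold of 8.47, came at 47.2 kb. The 2nd cluster was bordered by Zfp202, with a summit of fold 6.48 lying 286 bp from its end, and by Panx3, before which a summit of fold 8.72 lay 21.2 kb from the border. The cluster around globin lay between Rrm1, encoding a ribonucleotide reductase subunit, and Trim6. A summit of fold 3.53 stood 1.31 kb outside on the side of Trim6, and the first on the side of Rrm1 came beyond that gene, 59.1 kb from the border.

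At the lower border on chromosome 17 the first summit was closer than at any other of the 68 borders. A summit of fold 6.99 lay 0.32 kb outside Olfr90 and another of fold 16.7 at 1.68 kb, before Gabbr1, which encodes a GABA-B receptor subunit. Its other side was empty for 992 kb, past the pheromone gene Esp36. On chromosome 10, summits of fold 10.2 and 13.2 stood 12.2 and 17.3 kb outside, between the cluster and its neighbours Mettl7b and Neurod4. At the other clusters of the largest 10 the neighbouring genes were Glyat and Tle4, Ovch2 and Nlrp10, A26c3 and Gm52523, Trim30d and Fam160a2, and Muc16 and Zfp560. The first summits there lay 9.76 to 172 kb from the border, with folds of 2.96 to 11.7.

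The peaks that were called inside the clusters were about as strong as others. Their median fold was 6.88, with quartiles of 4.97 and 8.81 and a range of 2.36 to 16.4, against a median of 6.82 over autosomal peaks. A fold among the highest 20% of the autosomes was reached by 20 of 137 (14.6%, exact 95% interval 9.15 to 21.6) and one in the lowest 20% by 24 (17.5%, 11.6 to 24.9). Flank peaks had a median of 7.46, with 51 of 209 in the highest 20% (24.4%, 18.7 to 30.8) and 24 in the lowest (11.5%, 7.498 to 16.6). Among peaks with a −log10 q at or above the median of the list, the flank median was 0.996 of the autosomal one. The median −log10 q was 27.4 inside, 39.2 in the flanks and 30.1 over the autosomes, and the median widths were 482, 649 and 538 bp. Only called peaks are compared here, so a weaker site under the authors' threshold is not seen. Whether reads could be placed uniquely among these similar genes was not tested.

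**Figure D5:**
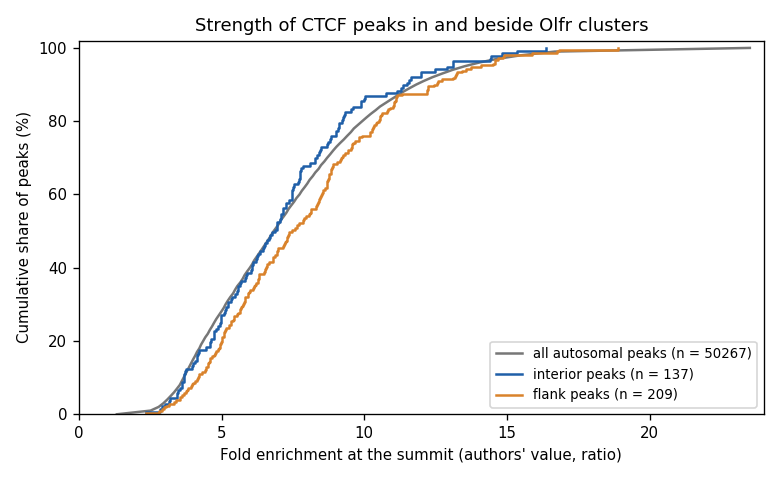
Cumulative share of peaks in percent (vertical axis) by fold enrichment at the summit (horizontal axis, the authors' ratio) for the 137 interior peaks in blue, the 209 flank peaks in orange and the 50267 autosomal peaks in grey. The medians are 6.88, 7.46 and 6.82.

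The strongest interior peak, at 92610798 to 92611707 on chromosome 1, had a fold of 16.4 and stood 2.43 kb from Olfr1410. The next, of 15.4, lay 49.9 kb from the upper border of the 222-gene cluster (chromosome 2, 90351448 to 90352196), 22.5 kb from the nearest receptor gene, Olfr1565. A peak of 14.8 lay 18.3 kb from Osbp (chromosome 19, 12011625 to 12013051), and the others with a fold above 14 lay inside Lpxn (14.4) and 6.42 kb from Olfr159 (14.4). The rest of the strongest 10 were near Lalba, the milk protein gene (13.1, at 4.79 kb), inside Trim58 (13.1), 1.62 kb from Olfr957 on chromosome 9 (12.9), 2.60 kb from Keg1 (12.5) and inside Olfr1393 (11.99), the last with the same fold as a peak 19.7 kb from Olfr1389. The Olfr957 peak was the only one of them more than 200 kb from a border, at 679 kb.

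In the flanks, the strongest peak had a fold of 18.9 and lay inside Cckbr, the gene of a cholecystokinin receptor, 64.8 kb beyond Olfr692 on chromosome 7 (105433668 to 105434650). Peaks inside Dtx4 (16.8), before Gabbr1 (16.7), inside Stx3 (15.9) and inside Tmem8b (14.9) followed. Then came peaks 1.15 kb from Btnl10 (14.9), 11.1 kb from Pdcl (14.7) and 6.73 kb from Gpx6 (14.6), and those inside Cyb5r2 (14.6) and 0.590 kb from Cd63 (14.5). Those by Gabbr1, Stx3 and Pdcl lay within 10 kb of a border, at 1.68, 8.02 and 6.29 kb.

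Vomeronasal receptors, the pheromone receptors of the vomeronasal organ, are the other large chemoreceptor family, and 296 of their genes formed 21 clusters under the same rule. Their interiors had 2.02 summits per Mb (interval 1.38 to 2.85), below the olfactory receptor interiors without overlap of the intervals, and their flanks 18.3, a ratio of 9.07. In 4 clusters of keratin and keratin-associated protein genes, structural proteins of hair and skin that also stand in tandem arrays, the interiors had 21.0 per Mb (16.0 to 27.1) and the flanks 50, a ratio of 2.38.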

How the data were processed

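CTCF was profiled by ChIP-seq in 2 immunoprecipitated and 2 input testis samples, and 1 deposited list of merged peaks was used. The submitters' processing notes name BWA 0.7.12, MACS2 2.2.7 and mm10, with no role given. The labels of the peaks read bio2 and merged, and whether both immunoprecipitated samples entered is not given in the sources used here. Used from the authors' columns were the fold enrichment, which is a ratio, the −log10 q and the summit offset. The score, which the authors also gave and which differed by at most 1 from 10 times the −log10 q, went unused. The deposited −log10 q was at least 1.31 and the depth is unknown.

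Gene positions and promoters came from RefSeq tables of GRCm38.p6. Genes starting below 3 Mb were left out as scaffold coordinates, among them 1 Olfr gene. Autosomal length ran from 3 Mb to the last gene or peak, and 20560 protein-coding genes were used. Python 3.11.15, pandas 2.3.3 and SciPy 1.17.1 gave counts, medians and exact Poisson or Clopper-Pearson 95% intervals. Counting was tested on simulated data. With no value per sample, no test was run.

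The clusters, gene lists and alternatives were chosen with earlier results of these data known. Named were the 10 largest clusters with the genes at their borders, those without a summit, all receptor and up to 20 other genes with a summit within 1 kb, the 10 strongest peaks of each place, and 13 well-studied receptors, of which Olfr151 is a pseudogene in the table and so no member. The planned tests assumed no sequence. The motif and promoter counts, the tiles by gene number and the genes in a like length range were added after the data were seen. So were 3 of the alternatives.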

Additional observations from a re-analysis of the deposited data

How the results depend on the processing

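Of 93 values recomputed under alternatives, 75 stayed within the counting error of the value reported or, for counts, within 1.5 times it, and none turned a density ratio to the other side of 1. Joining genes under 500 kb apart gave an interior to autosome ratio of 0.345, a flank to interior ratio of 4.27 and 3 clusters without a summit. Under 100 kb, the flank to autosome ratio was 1.21, 76.2% of borders had a summit and 15 clusters had none. Keeping only peaks whose −log10 q reached the list's median, the flank ratios were 1.75 to autosomes and 8.24 to interiors, the flank to autosome ratio of median fold was 0.996, 75% of borders had a summit, 14 clusters had none, and 0.190% of receptor genes had a summit within 1 kb. Without clusters that hold other genes, the flank to autosome ratio was 1.21. Clusters without a summit numbered 8 with fold at least 5 or with clusters of 3 or more genes, and 2 with 10 or more genes. Flanks of 50 kb left 70.6% of borders with a summit, and 5.31% of receptor genes had a summit within 5 kb. The cause was not tested where the choice itself does not set the number. Leaving out each cluster in turn gave interior to autosome ratios of 0.224 to 0.267, an alternative added after the data were seen. No paired analysis was possible because values per sample are absent from the merged peaks, and no replicate could be left out. With the depth unknown, missed weak sites cannot be counted.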
